A study of Mus with 4 samples.

Results

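Intergenic-class circular RNAs (circRNAs) of mouse ocular tissue were taken as every circRNA that the deposited tables place in the intergenic class wherever it is listed. CircRNAs of chromosomes X and Y (124) and of an abundant chromosome 10 locus (17, between positions 92044935 and 92171717) were left out, as were 47 whose class differed between tables. This gave 2288 of 44073 circRNAs (5.19%), with 97761 back-spliced junction reads in all, or 4.74% of the reads. Of these 2288, 5 lay on unplaced contigs. Every library came from ocular tissue of C57BL/6J mice that had breathed 75% oxygen between postnatal day 7 (P7) and P12, and was collected either at P12 or, once they were back in room air, at P13. The groups were VLDLR deletion at P12, VLDLR deletion at P13, wild type at P12 and wild type at P13, with 1 library each. VLDLR is the very-low-density lipoprotein receptor, and the labels give neither the kind of deletion nor the number of animals behind a library.

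A circRNA forms when the donor of a downstream exon is joined to the acceptor of an upstream one, so that the RNA closes into a ring without free ends. Reads across such a back-spliced junction come from the ring, while reads that run across the same splice sites without it can come from linear RNA. A caller gives the class "intergenic" to a ring whose position it cannot place in a gene of the annotation in use, which can happen for rings from unannotated exons or transcripts as well as from DNA far from any gene. Rings of the photoreceptor gene Rp1 figure in the results below. Its protein binds microtubules of the photoreceptor axoneme, mutations in the human gene cause retinitis pigmentosa, and it was first described as an oxygen-regulated photoreceptor protein.

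The 4 libraries held between 299723 and 759063 junction reads over between 18022 and 31208 circRNAs, with a median of 5 or 6 reads each. The deletion libraries held fewer reads than the wild-type libraries and came from another sequencing run, so that genotype and run cannot be told apart. CircRNAs of Vldlr numbered 0, so the targeted gene gave no check of the labels. Host genes of the tissue were present. CircRNAs came from 21 of 33 photoreceptor marker genes, 7 of 8 bipolar cell genes, 11 of 18 lens genes and 8 of 12 striated muscle genes, while the rod genes Gnat1 and Nrl were at 0. Coordinates are those of the deposited tables, for which the sources used here give no genome build. Gene names for positions come from a RefSeq table of assembly GRCm38.p6. For circRNAs with 1 host, 99.9% of the authors' host names were found in that table, and 99.97% of the matched circRNAs lay inside the interval of their host.

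Most intergenic-class circRNAs lay inside genes of the RefSeq table. The deposited tables name no host for this class. Both ends fell inside the same RefSeq gene for 1316 of the 2288 (57.5%), and these held 78.3% of the class's reads. A further 442 (19.3%, 11.6% of the reads) had 1 end in a gene, 187 (8.17%) had their ends in different genes, and 80 (3.50%) spanned a whole gene with both ends outside it. Only 258 (11.3%, 6.70% of the reads) overlapped no RefSeq gene, and the 5 on contigs could not be placed. Of the circRNAs with both ends in 1 gene, 1034 lay in 321 protein-coding genes and 262 in 103 long non-coding RNA genes. Altogether 441 genes held such a circRNA, of which 253 were also named by the authors as hosts of exon-class or intron-class circRNAs, and 188 never were. Where the same gene had circRNAs named by the authors, strand could be compared, and 857 of 861 intergenic-class circRNAs (99.5%) lay on the strand of those. The shares by position differ between counts of circRNAs and counts of reads, since circRNAs within genes were the more abundant ones.

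**Figure D1:**
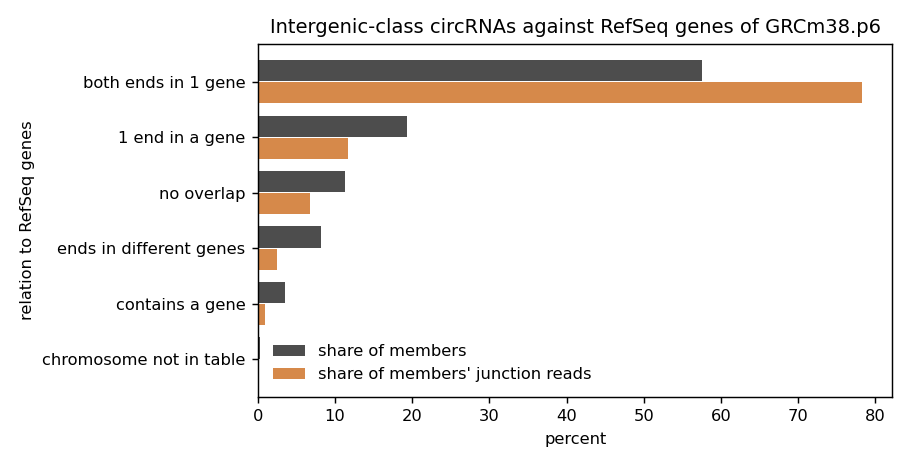
Percent of the 2288 intergenic-class circRNAs (dark bars) and of their junction reads (orange bars), by where their ends lie among RefSeq genes. The class with both ends in 1 gene holds 57.5% of the circRNAs and 78.3% of the reads, and the class with no overlap holds 11.3% and 6.70%.

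The circRNAs fell into 978 loci of overlapping members, 639 of them with a single circRNA and the largest with 146. They often shared splice positions. Of the 2288, 1513 (66.1%) had an end in common with another intergenic-class circRNA and 666 (29.1%) with an exon-class or intron-class circRNA. Chromosomes 1 (277 circRNAs) and 7 (270) held the most, and on chromosome 7 they made up 11.6% of all circRNAs. Their genomic span, the distance between the ends before splicing, had a median of 20313 bases and ran between 152 and 199599 bases. Intron-class circRNAs had a median span of 16066 bases and exon-class circRNAs 10384. Spans of at least 100 kb were found in 8.17% of the intergenic class, 5.83% of the intron class and 2.43% of the exon class. Within the intergenic class, those that overlapped no gene were the shortest group, with a median of 7431 bases.

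Rp1 held more of these circRNAs than any other gene. It had 138 with both ends inside it, and their summed reads were 4891 in deletion P12, 5610 in deletion P13, 8895 in wild type P12 and 9678 in wild type P13, or 29.7% of all reads of the class. The authors' tables named Rp1 as the host of only 4 circRNAs, with 2, 2, 26 and 23 reads in the same order. The locus around it reached between 3991088 and 4332677 on chromosome 1. Zranb1, which encodes a deubiquitinase, was second by reads, with 914, 1218, 2326 and 2331 in the same order over 19 circRNAs. Elf2, which encodes an ETS transcription factor, had 10, and Fat3, which encodes an atypical cadherin, had 2. These genes are all protein-coding and all served as authors' hosts for other circRNAs, whereas for the non-coding genes Gm32576 (5 circRNAs), Gm9548 (28) and Snhg14 (46) the authors named 0 circRNAs.

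The 10 most abundant intergenic-class circRNAs, ranked by their mean of scaled reads per 1000000 (RPM), included 4 of Rp1, and 9 of the 10 are described. A junction count covers 1 splice junction, so it does not grow with the length of the ring. The Rp1 circRNA chr1:4163855-4231144 led with 1068 and 1187 reads in deletion P12 and P13, against 1538 and 1643 in wild type P12 and P13. After scaling these were 4132 and 4084 RPM in the deletion libraries and 2692 and 2537 in wild type, so that both deletion libraries were higher. It alone held 5.56% of the class's reads. The Zranb1 circRNA chr7:132948044-132950435 had 691 and 974 reads in the deletion libraries and 1714 and 1761 in wild type, and its scaled values overlapped between the genotypes. The Fat3 circRNA chr9:16374949-16378254 had 447 and 493 reads against 859 and 824, and the Elf2 circRNA chr3:51299783-51326035 had 280 and 337 against 672 and 781. Neither passed the genotype test described below. A ring with 1 end in the long non-coding RNA gene E230016M11Rik, chr6:67077248-67116767, had 741 and 1063 reads in the deletion libraries and 532 and 869 in wild type, and had the largest genotype difference of the 9 described after scaling.

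**Figure D2:**
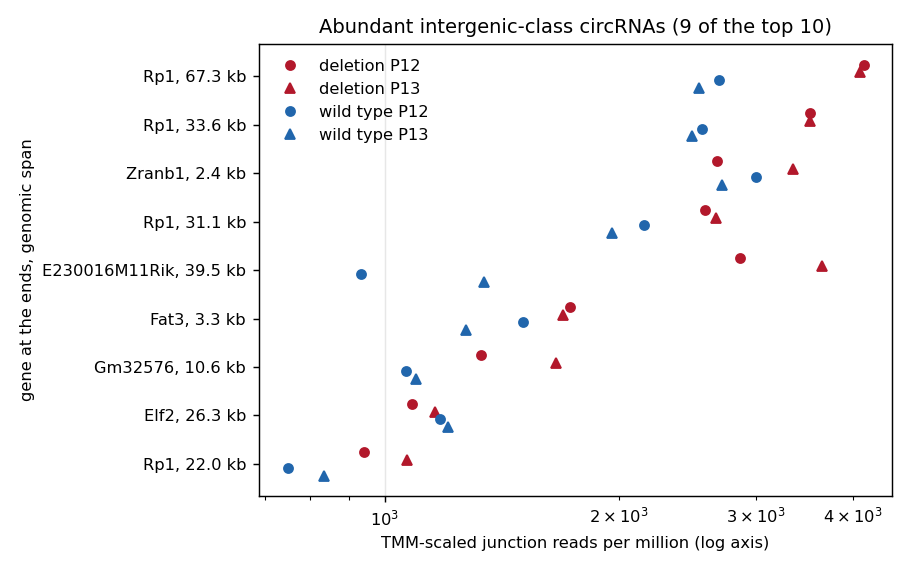
TMM-scaled junction reads per 1000000 (log axis) of 9 of the 10 most abundant intergenic-class circRNAs in each of the 4 libraries, labelled by the gene at their ends and their genomic span. Red symbols are VLDLR deletion and blue symbols wild type, with circles for P12 and triangles for P13. E230016M11Rik shows the widest gap between genotypes, while the Zranb1 values overlap.

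The share of the class was similar in the 4 libraries when circRNAs were counted and higher in the deletion libraries when reads were counted. Intergenic-class circRNAs numbered 803 in deletion P12 (4.46% of those listed, 95% exact binomial interval 4.16% to 4.77%) and 956 in deletion P13 (4.75%, 4.46% to 5.05%). In wild type they numbered 1320 at P12 (4.62%, 4.38% to 4.87%) and 1510 at P13 (4.84%, 4.60% to 5.08%), and the 4 intervals overlapped. By reads the share was 5.11% (5.03% to 5.19%) in deletion P12 and 5.39% (5.32% to 5.47%) in deletion P13, against 4.52% (4.47% to 4.57%) in wild type P12 and 4.49% (4.44% to 4.54%) in wild type P13. Without Rp1 it was 3.48% and 3.75% in the deletion libraries and 3.17% and 3.21% in the wild-type libraries. Expressed as scaled reads, the sum of the class was 1.13-fold (1.11 to 1.15) that of wild type at P12 and 1.21-fold (1.19 to 1.23) at P13. On the SRPBM scale, introduced below, the same sums were 0.441-fold and 0.408-fold, so the direction depends on the scaling. These intervals cover counting error only and hold no spread between animals.

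Most of the reads came from a small part of the class. Of the 2288, 446 (19.5%) were listed in all 4 libraries and held 86.2% of the reads, while 1145 (50.04%) were listed in exactly 1. Listing in every library was less frequent than in the exon class (26.4%) and more frequent than in the intron class (16.1%). Among the Rp1 circRNAs 73 of 138 (52.9%) were in all 4. CircRNAs listed only in the deletion numbered 337 (14.7%, beside 14.9% of the intron class and 10.1% of the exon class). Those listed only in wild type numbered 1057 (46.2%, beside 48.3% and 41.5%), in libraries that differ in depth. After thinning to 299723 reads, the expected number listed was 803 in deletion P12, 898 in deletion P13, 923 in wild type P12 and 947 in wild type P13. As shares of all circRNAs listed after thinning, these were 4.46%, 4.70%, 4.43% and 4.49%. A table lists a circRNA from 2 reads on, and an unlisted one was counted as 0.

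The deposited junction ratio sets back-spliced reads against the other reads at the same positions. It is 2 times the junction reads over that number plus the non-junction reads. A value near 1 means that nearly all reads at the ends crossed the back-spliced junction. Linear RNA had been depleted before sequencing, so the ratio does not give the share of rings in the tissue. Non-junction reads can also come from other rings that use the same positions. Over the 86 intergenic-class circRNAs with at least 20 reads in every library, the median was 0.622 in deletion P12, 0.639 in deletion P13, 0.640 in wild type P12 and 0.631 in wild type P13. This was close to the exon class (0.627, 0.627, 0.626 and 0.634 over 2024 circRNAs) and the intron class (0.649, 0.667, 0.616 and 0.638 over 77). The median hid a split between Rp1 and the other loci. The 22 Rp1 circRNAs had medians of 0.0985, 0.105, 0.0890 and 0.0950, and the 64 others 0.810, 0.796, 0.747 and 0.778. All 138 circRNAs of Rp1 were built from 24 lower and 21 higher positions. The part of other rings in the Rp1 ratios was not tested. Of the Rp1 circRNAs 17 of 22 lay below 0.2 on average, against 8 of the 64 others, 2.60% of the intron class and 6.62% of the exon class. Values above 0.8 were found in 46.9% of the 64 others, 26.0% of the intron class, 23.5% of the exon class and in none of the 22 Rp1 circRNAs. The gap to the intron class depended on the read minimum. With at least 50 reads in every library the share was 59.3% of 27 others and 56.7% of 30 intron-class circRNAs. In the exon class it was 40.8% of 825.

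Among the same circRNAs with at least 20 reads in every library, rings at both extremes can be named. The highest mean ratio belonged to chr12:6637974-6639980, which overlaps no gene and lies between Gm3678 and Gm46311, at 0.969. The circRNA chr2:146143013-146153917 of Cfap61, which encodes a protein of cilia and flagella, came next at 0.947, with 172 and 210 reads in deletion P12 and P13 and 275 and 350 in wild type. The third, at 0.944, was chr11:98263470-98267858 of Cdk12, which encodes a kinase of RNA polymerase II. The 3 lowest of them were all in Rp1, at 0.0240 for chr1:4226611-4267620, 0.0260 for chr1:4226611-4231144 and 0.0355 for chr1:4226611-4312722, which share 1 end. The other 5 of the 22 Rp1 circRNAs lay above 0.2. Their means were 0.642 for chr1:4163855-4231144, 0.587 for chr1:4142612-4312722, 0.536 for chr1:4197534-4231144, 0.378 for chr1:4197534-4228619 and 0.206 for chr1:4163855-4228619. The first of these, the most abundant Rp1 circRNA, had ratios of 0.692 and 0.660 in the deletion libraries and 0.599 and 0.617 in wild type. Within circRNAs of the class the deletion exceeded wild type by a median difference of 0.0085 at P12 and 0.0065 at P13. The exon class had differences of 0.008 and 0.002, and the intron class 0.004 and 0.01, so this shift was not particular to the class.

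**Figure D3:**
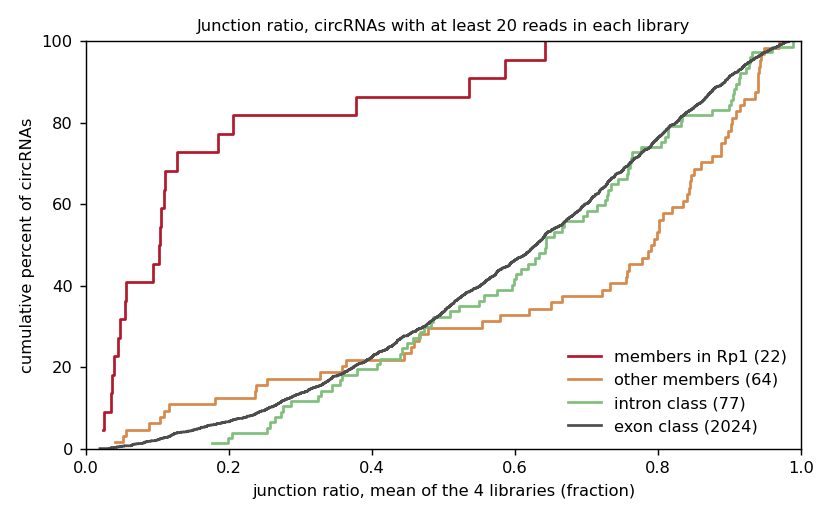
Cumulative percent of circRNAs by junction ratio (fraction, mean of the 4 libraries), for circRNAs with at least 20 junction reads in each library. The 22 Rp1 circRNAs (red) lie mostly below 0.2, the 64 other intergenic-class circRNAs (orange) lie to the right of the intron class (green, 77) and the exon class (grey, 2024) over the upper part of the range.

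The deletion was compared with wild type over both days with edgeR's quasi-likelihood test, in which day was a second term and the 2 days of a genotype served as its replicates. Only 1 residual degree of freedom was left, beside a median of 16.3 prior degrees of freedom borrowed over all tested circRNAs. The p-values therefore measure a spread between these libraries that is mostly shared over circRNAs and not measured for each ring. Scaling used TMM, so every change is relative to the bulk of circRNAs. In whole tissue, more cells of a type and more RNA per cell cannot be told apart. Of the 2288 circRNAs, 336 had at least 10 reads in at least 2 libraries and were tested together with all others. In the deletion 38 rose and 15 fell at a Benjamini-Hochberg adjusted p under 0.05, or 15.8% of those tested. Over all 8785 circRNAs tested, 8.62% were called (5.03% higher, 3.59% lower), while the intron class had 7.25% and the exon class 8.39%. The median log2 fold change was 0.05 in the class and -0.08 over all circRNAs. Of the 336, the scaled values of the 2 genotypes did not overlap for 92 circRNAs with the deletion above and 92 with it below. The same count was not taken over all 8785 circRNAs, so it is no result about the class. The counts moved by more than 1.5 times with single libraries left out. Fewer rose without a wild-type library, and more fell without a deletion library. Those fits dropped day from the model and left 1 library in a group. They also tested fewer of the class, 321 without deletion P12, 313 without deletion P13, 240 without wild type P12 and 226 without wild type P13.

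The calls were spread over many places. The 336 tested circRNAs came from 161 loci, of which 26 held a circRNA that rose, 12 held 1 that fell, and 1 held both. By position, 26 rose and 10 fell of the 241 with both ends in 1 gene, 5 rose and 0 fell of the 36 with 1 end in a gene, and 5 rose and 4 fell of the 39 without overlap. Outside Rp1, 28 rose and 12 fell of 275. DESeq2 called 18 and 5, and all 23 were among the 53. The authors' SRPBM divides the junction reads by 1 constant per library, and on that scale the median of all tested circRNAs was -1.54. There the deletion stood above wild type for 20 of these 38 and was called lower for 6.

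The rise with the smallest p belonged to the shortest circRNA of the class that was tested. The ring chr9:63093427-63093625, 199 bases long in the long non-coding RNA gene Gm35658, had 163 and 131 reads in deletion P12 and P13, against 41 and 39 in wild type. Its log2 fold change was 3.02 ± 0.22 (SE) with an adjusted p of 1.58e-07 by edgeR's quasi-likelihood test, and all deletion values lay above all wild-type values. The junction ratio of this ring was 0.924 and 0.939 in the deletion and 0.701 and 0.639 in wild type. The E230016M11Rik ring rose by 1.53 ± 0.12 (adjusted p 4.62e-07, edgeR), but on the SRPBM scale its log2 fold change was 0.07 with an adjusted p of 0.695. Its ratio was likewise higher in the deletion, at 0.914 and 0.930 against 0.740 and 0.790. A ring that overlaps no gene, chr10:82383763-82404029 between Gm4924 and Gm8188, had 88 and 71 reads against 39 and 37 (2.21 ± 0.25, adjusted p 1.64e-05, edgeR).

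Rings inside protein-coding genes also rose. The circRNA chr11:84193079-84195687 of Acaca, which encodes the acetyl-CoA carboxylase of fatty acid synthesis, had 240 and 173 reads in the deletion against 144 and 167 in wild type, with a log2 fold change of 1.55 ± 0.19 (adjusted p 4.67e-05, edgeR). That of Hnrnpu, a nuclear RNA-binding protein gene (chr1:178323134-178325313), had 171 and 228 against 156 and 245, which after scaling was 1.16 ± 0.17 (adjusted p 2.34e-04, edgeR). The circRNA chr15:73391759-73394744 of Ptk2, the focal adhesion kinase gene, had 39 and 63 against 29 and 35 (1.80 ± 0.30), and the Cdk12 circRNA had 222 and 306 against 306 and 328 (0.87 ± 0.16). In each of these the scaled deletion values lay above both wild-type values, but none was called higher on the SRPBM scale. There the log2 fold change was 0.09 for Acaca (adjusted p 0.766, edgeR), 0.33 for Ptk2 (0.332), -0.30 for Hnrnpu (0.2002) and -0.59 for Cdk12, which was called lower (0.0242). The other named rises had lower counts. The ring chr8:27604376-27612577 in Gm1698 had 35 and 57 against 16 and 24 (2.34 ± 0.34), chr4:40862128-40872624 with 1 end in Gm34289 had 52 and 63 against 31 and 42 (1.81 ± 0.27), and chr8:27494857-27507394 in Poteg had 32 and 31 against 11 and 14 (2.47 ± 0.43). A pair of called rings, chr1:130682149-130684070 and chr1:130682149-130684073, share an end and differ by a few bases at the other, so that reads may be split between them. The Gm1698, Gm34289 and Poteg rings kept their direction on the SRPBM scale but not their call (adjusted p 0.0603, 0.296 and 0.0716, edgeR).

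The clearest fall was that of a ring in Pnpla3, which encodes a lipid droplet acyl hydrolase. The circRNA chr15:84171082-84186081 was listed in neither deletion library and had 202 reads in wild type P12 and 227 in wild type P13 (adjusted p 1.07e-07, edgeR). With a floor of 3 reads for an unlisted library, the deletion was 30.5-fold lower on P12 and 34.0-fold lower on P13. The 95% counting interval of the ratio reached up to 0.0407 on P12 and 0.0365 on P13. These values hold only if the caller did not leave the circRNA out. It was also the circRNA of the class with most reads among those listed in 1 genotype only. The ring chr12:28859252-28928968, with ends in Eipr1 and Gm31508, had 3 and 0 reads against 79 and 61 (adjusted p 2.72e-04, edgeR). It was 11.9-fold lower at P12 (ratio 0.0839, 95% interval 0.0170 to 0.254). At P13 it was 9.12-fold lower with the floor of 3 reads, and the interval of the ratio reached up to 0.139.

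Several falls were of short rings under 1 kb. The Zranb1 circRNA chr7:132949585-132950435 had 36 and 25 reads in the deletion against 247 and 137 in wild type, a log2 fold change of -1.48 ± 0.24 (adjusted p 5.82e-04, edgeR). It shares its end with the abundant Zranb1 circRNA, whose own fold change was 0.07 ± 0.13 with an adjusted p of 0.810 (edgeR). The ring chr4:142410457-142411344 of the long non-coding RNA gene Gm42339 had 10 and 7 against 88 and 95 (-2.27 ± 0.37), and chr18:60712723-60713632 of Ndst1, a heparan sulfate sulfotransferase gene, had 14 and 14 against 104 and 76 (-1.52 ± 0.33). Both deletion values lay below both wild-type values in all of these. The circRNA chr2:77681335-77720699 of the zinc finger gene Zfp385b had 10 and 13 against 62 and 82 (-1.49 ± 0.37). A gene-free locus of chromosome 5 between Gm36667 and Gm7902 held 2 rings that fell, with 9 and 15 against 73 and 82 reads (chr5:133646934-133673159) and 52 and 78 against 242 and 253 (chr5:133767609-133775964). Rings listed in neither deletion library were chr7:139333387-139337456, with 25 and 22 reads in wild type, and chr9:35452045-35483220 in Cdon, a cell surface receptor gene of hedgehog signalling, with 17 and 29. DESeq2 did not call the Ndst1 ring (adjusted p 0.0682), the Zfp385b ring (0.128) or the chromosome 5 rings (0.0913 and 0.0973). Leaving out wild type P12 ended edgeR's call for the Ndst1 ring (adjusted p 0.0792), and leaving out deletion P12 ended it for chr5:133767609-133775964 (0.120). DESeq2 gave no adjusted p for the 2 rings listed in neither deletion library. Both had few reads, and their fold change depends on how an unlisted circRNA is counted.

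The Rp1 circRNAs did not move as a block. All 138 lay on the minus strand, where the lower coordinate is the donor side of the back-spliced junction and the higher coordinate the acceptor side, and they were built from 24 lower and 21 higher positions. The 3 most abundant held 49.5% of the Rp1 reads and the 10 most abundant 74.0%. The sum over all 138 was 1.22-fold (95% counting interval 1.17 to 1.26) that of wild type at P12 and 1.29-fold (1.25 to 1.34) at P13 after scaling, and 0.474-fold and 0.437-fold on the SRPBM scale. Of the 61 tested, 10 rose, 3 fell and 48 did not pass (21.3% called, beside the 8.62% of all circRNAs), with a median log2 fold change of 0.30. DESeq2 called 4 of the 10 that rose and 1 of the 3 that fell. Photoreceptor marker genes moved in the same direction as the sum. Their hosted circRNAs summed to 18737 and 19997 scaled RPM in deletion P12 and P13, against 13016 and 15485 in wild type P12 and P13, with 12 genes of the list at 0, among them Gnat1, Gnat2 and Nrl. The part of photoreceptor content in the Rp1 values was not tested.

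The Rp1 circRNAs can be described by the positions that they join. The circRNAs that end at 4231144 hold 41.5% of the Rp1 reads, and their summed scaled reads were 1.43-fold those of wild type at P12 and 1.47-fold at P13. Of the 8 tested that share this end 2 rose and 0 fell. The most abundant, chr1:4163855-4231144, had a log2 fold change of 0.65 ± 0.11 (adjusted p 9.35e-04, edgeR), and chr1:4197534-4231144, with 911 and 1025 reads in the deletion and 1462 and 1607 in wild type, had 0.48 ± 0.11 (adjusted p 0.00963, edgeR). On the SRPBM scale both were lower in the deletion (-0.81 and -0.98), and the second lost its call without wild type P12 (adjusted p 0.0726, edgeR) and without wild type P13 (0.142). Those that end at 4228619 hold 23.7% of the Rp1 reads and summed to 1.20-fold and 1.27-fold, and 0 of 3 tested were called. Those that end at 4293012 summed to 1.48-fold and 1.58-fold, with 3 rises and 0 falls of 11 tested. DESeq2 called 0 of these 3, and 1 of them was called lower on the SRPBM scale. CircRNAs ending at 4311433 summed to 0.728-fold at P12 and 0.828-fold at P13, and of 12 tested 0 rose and 1 fell. Both deletion values lay below wild type for 6 of the 12 and above it for 0, a count not taken over all tested circRNAs. Those that end at 4312722 had 0 rises and 1 fall of 9.

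The ring chr1:4226611-4311433 had 109 and 99 reads in deletion P12 and P13, against 366 and 420 in wild type, with a log2 fold change of -0.76 ± 0.17 (adjusted p 0.00806, edgeR). The ring chr1:4226611-4312722 had 25 and 24 against 147 and 106 (-1.20 ± 0.27, adjusted p 0.00704, edgeR), and was not called by DESeq2 (adjusted p 0.0826) or without wild type P12 (0.114 by edgeR). The third that fell, chr1:4243133-4267620, had 2 and 0 against 21 and 28 and was not called without deletion P13 (adjusted p 0.0886, edgeR). By their lower position, 4 of 10 tested rings that start at 4163855 rose and 0 fell, 3 of 9 that start at 4197534 rose, 2 of 6 that start at 4226611 fell, and of 4 that start at 4243133 1 rose and 1 fell. Of the rings that start at 4226611, chr1:4226611-4231144 had 46 and 46 reads against 70 and 94 and did not pass (0.33 ± 0.25, adjusted p 0.523, edgeR). The ring chr1:4163855-4284898 was listed in the deletion alone, with 17 and 12 reads. A test of the difference between positions was not run, and circRNAs with a shared position are not independent of each other.

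**Figure D4:**
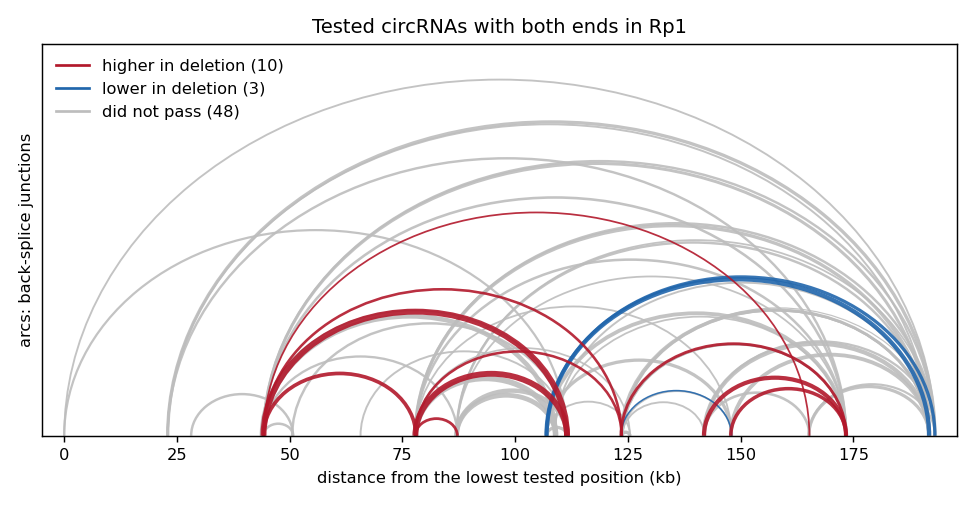
The 61 tested circRNAs with both ends in Rp1, each drawn as an arc between its ends along the gene (distance in kb from the lowest position), with line width growing with abundance. Red arcs rose in the deletion (10), blue arcs fell (3) and grey arcs did not pass (48). At the right-hand edge 2 of the 3 blue arcs end, and no red arc does.

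The remaining loci with many circRNAs had fewer circRNAs that could be tested. On the SRPBM scale the sums of every gene given here were below wild type. Cfap61 held 33 circRNAs, whose summed scaled reads were 1.71-fold (95% counting interval 1.45 to 2.003) those of wild type at P12 and 1.52-fold (1.32 to 1.76) at P13. All 4 that were tested lay above wild type in both deletion libraries, and 1 of the 4 rose. These 4 come from 1 locus, and how often all tested circRNAs lay apart in this way was not counted. A chromosome 12 locus with the non-coding genes Gm32576, Gm32631 and Gm9548 had 58 circRNAs. Its most abundant ring, chr12:6036104-6046744, had 344 and 483 reads in the deletion against 608 and 711 in wild type (log2 fold change 0.46 ± 0.13, adjusted p 0.0397, edgeR). That call was lost without deletion P13 (adjusted p 0.246, edgeR), without wild type P12 (0.326), without wild type P13 (0.236), with genotype alone in the model (0.0657) and with no filter on low counts (0.878). Of the 8 tested with an end in Gm32576, 2 rose. None of the 9 tested in Gm9548 passed. On chromosome 7 a locus of 43 circRNAs lay among the Mir344 microRNA genes. Its leading ring, chr7:62100382-62193593, had 10 and 8 reads against 61 and 59 (-1.58 ± 0.41, adjusted p 0.0216, edgeR), and was not called by DESeq2 (adjusted p 0.146) or without deletion P13 (0.0706 by edgeR). Snhg14, the long non-coding host of small nucleolar RNAs that runs antisense to Ube3a, held 46 circRNAs with only 27 and 41 reads in the deletion and 119 and 89 in wild type, and its sum was 0.502-fold (0.317 to 0.767) at P12 and 1.03-fold (0.691 to 1.502) at P13.

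Each day was also compared on its own, as 1 library against another, with no p-value and no replicate check. A circRNA was called where the scaled ratio reached 2 or more, or 0.5 or less, and its exact conditional 95% interval excluded 1, given at least 20 reads over both libraries. At P12, 42 of 272 were higher in the deletion (15.4%, beside 10.9% of all circRNAs) and 33 lower (12.1%, beside 10.6%). At P13, 47 of 304 were higher (15.5%, beside 10.3%) and 35 lower (11.5%, beside 9.58%). The Gm35658 ring had a ratio of 8.79 (6.21 to 12.7) at P12 and 7.49 at P13. A ring of the tight junction gene Tjp1, chr7:65490903-65513331, had 17 and 12 reads in the deletion and 3 and 5 in wild type, which gave 12.5 (3.62 to 66.7) at P12. At P13 the Rp1 ring chr1:4163855-4243262 stood at 6.05 (3.20 to 12.1), with 26 and 38 reads in the deletion and 20 and 14 in wild type. The rings farthest below wild type were those of Pnpla3 and Eipr1 on both days, chr7:128878305-128879536 of Gm32884 at P12 (0 reads in deletion P12, 42 in wild type P12) and chr9:48361427-48390352 of Nxpe4 at P13 (0 reads in deletion P13, 41 in wild type P13).

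**Figure D5:**
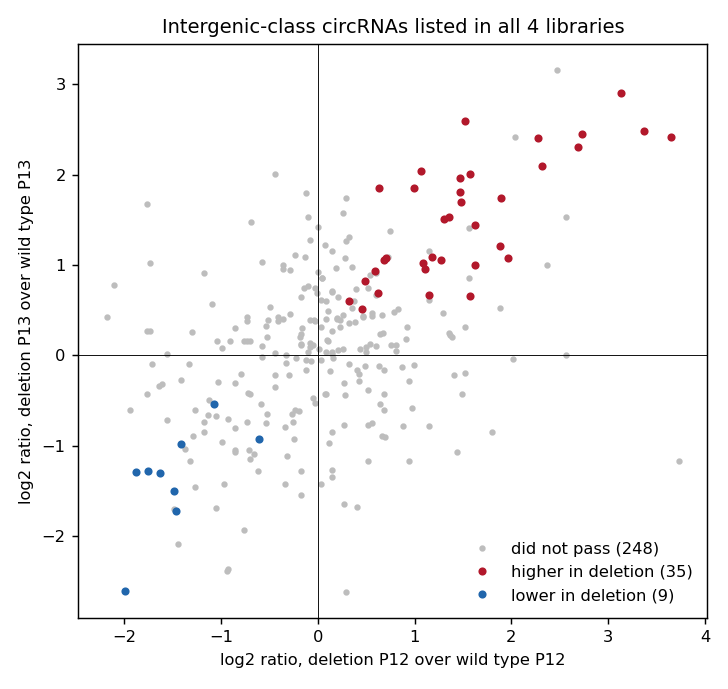
Log2 ratio of scaled junction reads of deletion over wild type at P12 (horizontal axis) and at P13 (vertical axis) for the 292 tested intergenic-class circRNAs listed in all 4 libraries. Red points rose (35) and blue points fell (9) by edgeR's test, which uses the same 4 libraries, and grey points did not pass (248). The red and blue points have the same sign on both axes.

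A ring seen in a single library was chr1:65050770-65062182, with ends in the lens crystallin genes Cryge and Crygd. It had 49 reads in deletion P12 and was listed in none of the other 3 libraries, which placed it at least 36.1-fold above wild type at P12 with the floor of 3 reads. The gamma crystallin genes are near-identical neighbours, so reads that join them are uncertain, and its junction ratio was 0.0350. CircRNAs hosted by the lens marker genes summed to 2886 scaled RPM in deletion P12 and 2174 in deletion P13, against 970 in wild type P12 and 1227 in wild type P13, so that the sum was highest in the same library. Its part in the value of this ring was not tested.

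P13 was compared with P12, in which age and the return to room air cannot be told apart. Over both genotypes 0 of the 336 passed edgeR's quasi-likelihood test at an adjusted p under 0.05, and DESeq2 called 0. Over all circRNAs 0.0228% passed edgeR's test (0.0114% higher and 0.0114% lower). At an unadjusted p under 0.05 (edgeR), 12 of the 336 were higher and 6 lower, beside 158 and 156 of all 8785. Between single libraries, 10 of 206 were higher at P13 in the deletion (beside 4.0% of all circRNAs) and 5 lower (beside 4.19%). In wild type 26 of 373 were higher at P13 (beside 4.48%) and 18 lower (beside 4.62%).

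In the deletion, the circRNA chr9:6288490-6293937 of Pdgfd, a growth factor gene, had 18 reads at P13 and 2 at P12, and chr8:125491111-125492833 of Sipa1l2, a GTPase-activating protein gene, had 20 and 3. Wild type had 10 at P13 and 6 at P12 for the Pdgfd ring and 22 and 22 for the Sipa1l2 ring, and neither was called there. Another, chr10:99675578-99691798 of Gm35101, had 19 reads at deletion P13 and 3 at deletion P12. Lower at P13 in the deletion were the Crygd ring, the Zranb1 ring chr7:132948044-132973623 (7 at P13, 21 at P12) and chr13:83872656-83884235, which contains Gm52045 (6 at P13, 19 at P12). In wild type, chr7:142125157-142130098 of Gm32786 (26 at P13, 5 at P12), the Rp1 ring chr1:4243417-4261605 (36 and 10) and chr12:6637974-6639980 (97 and 40) were higher at P13. The short Zranb1 ring was lower at P13 in wild type, with 137 reads at P13 and 247 at P12 (ratio 0.489, 0.394 to 0.605). The circRNA chr6:99435216-99439456 of Foxp1, a forkhead transcription factor gene, had 4 at P13 and 18 at P12, and chr19:8478954-8491296, between Slc22a30 and Gm8189, had 7 and 29 and was listed in neither deletion library. Most of these single-library differences rest on fewer than 50 reads.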

How the data were processed

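Total RNA was depleted of ribosomal and linear RNA, fragmented and sequenced in pairs, per the labels' protocols. The authors deposited, per the file headers, back-spliced junction read counts and non-junction read counts for each circRNA as the caller CIRI writes them. They also deposited a junction ratio, a fraction that equals 2 times the junction reads over that number plus the non-junction reads within 0.001 for every row. The deposited SRPBM is a signal made by the authors by dividing junction reads by 1 constant per library (10.6, 12.1, 9.14 and 9.10 reads per unit in deletion P12, deletion P13, wild type P12 and wild type P13). The tools BWA and DESeq2 appear, per the submitters' processing notes, with neither version nor role, and the build is not given in these sources.

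Counts were joined over the libraries, with an unlisted circRNA as 0. The 8785 circRNAs that reached 10 reads in 2 or more libraries were fitted with edgeR 4.0.16 (R 4.3.3; TMM, glmQLFit robust, additive day and genotype) and adjusted by Benjamini-Hochberg over all of them. SE is the absolute log2 fold change over the square root of the F statistic. DESeq2 1.42.0 was an alternative. Pair intervals are Clopper-Pearson intervals conditional on the sum of both libraries (scipy 1.17.1). Reads carry no molecular identifiers, so intervals and the floor of 3 reads cover counting error only. No library of a group could be compared with another of the same group. Loci are chains of circRNAs that overlap by at least 1 base, and gene names come from RefSeq intervals of GRCm38.p6.

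Members, marker lists and tests were chosen with earlier results of these data known. Named were the 10 most abundant, up to 12 per direction for genotype and 6 for day by p, 3 per direction and library pair by interval, the 5 largest loci, genotype-only leaders, the longest and shortest tested, extremes of the junction ratio and tested circRNAs in marker genes. Marker lists held photoreceptor, bipolar, amacrine, horizontal and ganglion, Muller glia, lens, pigment epithelium and melanocyte, striated muscle, cornea and conjunctiva, endothelium, pericyte and fibroblast, microglia and leukocyte, and erythroid genes. The values of 1 gene that the rule would name are not reported here.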

Additional observations from a re-analysis of the deposited data

How the results depend on the processing

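DESeq2 called 18 circRNAs higher and 5 lower in the deletion, and 23 of the 53 calls were kept; RLE size factors and total junction reads each kept 53. On the SRPBM scale, which moved the median log2 fold change of all tested circRNAs from -0.08 to -1.54, 2 were higher and 169 lower, and 17 of the 53 kept their direction and call. With unlisted circRNAs as 1 read, 23 were lower. No filter kept 39 calls, a minimum of 20 reads 44 and genotype alone in the model 43. Leaving out 1 library gave between 19 and 33 higher and between 7 and 37 lower. Without wild type P12 these were 22 and 7, without wild type P13 19 and 11, without deletion P12 33 and 29, and without deletion P13 30 and 37. For the day, 1 was lower with no filter and 1 without wild type P12 (between 0 and 1 lower over the libraries left out), against 0 in the fit reported. The fit reported compares the genotypes within each day, and with genotype alone in the model 30 rose and 15 fell. No paired analysis was possible because the labels carry no replicate numbers beyond the day that the fit already holds.

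Single-library calls of deletion against wild type with at least 50 reads were 17 higher and 17 lower of 128 at P12. At P13 they were 22 and 14 of 140. A fold of 3 gave 18 and 20 of 272 at P12 and 19 and 23 of 304 at P13. On the SRPBM scale they were 6 and 160 of 272 at P12 and 3 and 209 of 304 at P13. Between days, calls with at least 50 reads were 2 higher and 1 lower of 91 in the deletion. In wild type they were 6 and 5 of 166. A fold of 3 gave 5 and 3 of 206 in the deletion and 7 and 7 of 373 in wild type. On the SRPBM scale 11 of 373 were lower in wild type. Shares over all circRNAs were not taken under these settings. The share of listed circRNAs was 3.92%, 3.99%, 3.83% and 3.92% in deletion P12, deletion P13, wild type P12 and wild type P13 with at least 10 reads, and 4.49% in wild type P13 after thinning. Outside Rp1, a choice made after seeing the data, the median junction ratio was 0.810, 0.796, 0.747 and 0.778 in that order. The median span of tested circRNAs was 17077 bases.

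On the SRPBM scale the log2 fold change turned negative for 42 of the 96 named circRNAs tested. For 16 of them a call stood on either scale, leaving aside Rp1 rings that had not passed and were named only as rings of a marker gene. In Rp1 it was -0.81 for chr1:4163855-4231144, -0.98 for chr1:4197534-4231144, -1.11 for chr1:4197534-4228619, -1.12 for chr1:4206660-4228619, -0.43 for chr1:4163855-4197641, -1.13 for chr1:4226611-4231144, -0.019 for chr1:4197534-4243262, -0.33 for chr1:4243133-4293012, -0.80 for chr1:4261527-4293012 and -0.56 for chr1:4267469-4293012. Elsewhere it was -1.39 for the abundant Zranb1 ring, -1.15 for Fat3, -1.0 for chr12:6036104-6046744, -0.30 for Hnrnpu, -0.59 for Cdk12 and -1.02 for the Cfap61 ring chr2:146143013-146153917. The sources used here do not give what the SRPBM constant counts, and the cause was not tested.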

Other observations

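Further circRNAs of the class rose in the deletion by edgeR's quasi-likelihood test over both days. A ring of the phospholipase C gene Plch1, chr3:63870656-63886013, had 14 and 20 reads in deletion P12 and P13 and 3 and 8 in wild type P12 and P13. That of the receptor phosphatase gene Ptprm, chr17:67303725-67304272, had 31 and 13 against 10 and 0, and that of the teneurin gene Tenm3, chr8:48674410-48674722, had 30 and 18 against 17 and 19. Foxp1 held a ring, chr6:99435216-99456580, with 39 and 26 against 28 and 29, and Zfyve9, an endosomal protein gene, held chr4:108717789-108727545 with 101 and 108 against 148 and 126. A ring with ends in Gm33317 and Mef2c, a transcription factor gene, had 21 and 22 against 7 and 9 (chr13:83498447-83514036). On the SRPBM scale only 2 circRNAs of the class were called higher, the Gm35658 ring and chr10:82383763-82404029. None of the further rises given here therefore kept its call on that scale. These further circRNAs were chosen after their values were seen.

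CircRNAs hosted by the other marker lists summed, in scaled RPM in deletion P12, deletion P13, wild type P12 and wild type P13, to 1083, 791, 677 and 659 for bipolar cells, 2542, 3059, 2412 and 2512 for striated muscle and 251, 317, 252 and 261 for pigment epithelium and melanocytes. Every other list summed to 184 or less in each library, among them amacrine, horizontal and ganglion cells (128, 103, 152 and 122), endothelium (120, 151, 152 and 184) and erythroid cells (124, 172, 89.3 and 108). Muller glia, pericytes and fibroblasts, microglia and leukocytes, and cornea and conjunctiva stayed below 39 in every library.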
